A study of Mus musculus with 32 samples.

Results

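The mRNAs of 10 translation factors that belong to the TOP class were followed through ribosome footprints of neural stem cells (NSCs) exposed to interferon-β (IFN-β). They are Eef1a1, Eef1b2, Eef1d, Eef1g, Eef2, Eif3e, Eif3f, Eif3h, Pabpc1 and Tpt1. They were taken by name, not by any value measured here, and all 10 of them were found among the 23035 genes of the footprint tables. NSCs came from the ventricular-subventricular zone (vSVZ) of male wild-type C57BL/6 mice aged 8 to 12 weeks and were cultured ex vivo. They were exposed to vehicle or IFN-β from 48 h after they were seeded, and harvested after 2 h or 14 h. The 4 groups had 4 libraries each of footprints, which are the 26 to 34 nt of mRNA that a ribosome shields from RNase, and 4 libraries of total RNA from the same lysates, 32 libraries in all. The replicates carry the numbers 2, 3, 5 and 6 for the shorter exposure and 1, 2, 3 and 4 for the longer. All groups received cycloheximide before lysis, so vehicle and IFN-β libraries share that step, and the labels give no dose of IFN-β and no transgene.

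TOP mRNAs start with a C at the cap that is followed by a run of pyrimidines, the 5' terminal oligopyrimidine motif. Their translation depends closely on mTORC1, and LARP1 binds the cap and the motif to hold them out of polysomes when mTORC1 is inactive. The class holds most ribosomal proteins and a smaller set of factors that work on the ribosome, to which these 10 genes belong. Eef1a1 is the GTPase that brings aminoacyl-tRNA to the ribosome, Eef1b2 and Eef1d are its nucleotide exchange subunits, and Eef1g is the subunit that holds the exchange complex together. Eef2 is the translocase of elongation. Eif3e, Eif3f and Eif3h are subunits of eIF3, the scaffold on which the initiation complex is built, Pabpc1 is the main cytoplasmic poly(A)-binding protein, and Tpt1 encodes TCTP, a small protein that binds the eEF1 complex.

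The annotated starts of these genes show how closely the motif is met in the reference. RefSeq (GRCm38.p6) start sequences were matched for 5 of the 10 genes, and Eef1d, Eef1g, Eif3e, Eif3h and Pabpc1 had no entry. Each line gives 30 bases on the gene's strand, 10 before the annotated start and 20 from it, with the longest run of C or T that begins within 10 bases of the start in capitals.
Eef1a1, chr9:78481705-78481734, minus strand: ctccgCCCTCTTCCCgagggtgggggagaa
Eef1b2, chr1:63176821-63176850, plus strand: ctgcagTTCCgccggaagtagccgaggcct
Eef2, chr10:81176621-81176650, plus strand: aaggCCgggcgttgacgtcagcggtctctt
Eif3f, chr7:108934405-108934434, plus strand: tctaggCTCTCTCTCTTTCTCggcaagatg
Tpt1, chr14:75845246-75845275, plus strand: cgctgacgacagTTCCgggggagccgcgga
The motif was searched on the gene's strand as a C at the annotated start followed by at least 4 bases that are each C or T. Of the 5 starts, that of Eif3f held it, in a run of 15 pyrimidines. The run of Eef1a1 was 10 bases long and crossed its start, with a T at the start itself. Eef1b2 and Tpt1 had runs of 4, and Eef2 a run of 2. Among all 32851 annotated starts, 2.51% held the motif, 3.83% had a run as long as that of Eef1a1, and 0.788% had a run as long as that of Eif3f. Among 46 starts of 38 TOP ribosomal protein genes 9 held it (19.6%). An annotated start can lie some bases from the start used in these cells, so these letters describe the reference only.

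Footprint libraries held 2956297 to 10505108 counts on coding sequences and total RNA libraries 1370008 to 7877753 counts on genes. All levels and fold changes below are relative to the scaled library, so a rise or fall shared by all footprints would not show. Rose, fell and close to vehicle are meant in this relative sense. The paper reports that global protein synthesis rose early and fell strongly later under IFN-β, which these values cannot show. At both times each IFN-β footprint library held fewer counts than the vehicle library of the same number, and the part of this in the results below was not tested. Of 12 NSC markers 11 or 12 had 10 or more footprints in every library of a group. The 9 microglia markers together stayed at 11.9 to 45.4 CPM (counts relative to library size), with Aif1, Cx3cr1, C1qa and Tyrobp at 0 in every library. Most of that sum came from Itgam and P2ry12. From vehicle to IFN-β at 14 h mean P2ry12 rose from 7.35 to 23.0 CPM and mean Itgam fell from 32.3 to 19.0 CPM. Both were called (log2 1.62 and -0.75). The summed level of 5 astrocyte markers was 706 to 886 CPM in vehicle and 1061 to 1345 CPM with IFN-β at 14 h. Of its 3 tested genes Aldh1l1 carried most of the sum and rose (log2 0.96 ± 0.08, edgeR adjusted p = 4.54e-07), Gja1 fell (-0.60 ± 0.14, adjusted p = 0.00317) and S100b did not pass (-0.22 ± 0.18, adjusted p = 0.333), with a median of -0.22. The 9 neuroblast markers summed to 1101 to 1205 CPM in vehicle and 1459.6 to 1629 CPM with IFN-β at 14 h. Most of that came from Map2, which rose (log2 0.44 ± 0.05, adjusted p = 1.67e-05), while Stmn2 fell (-1.07 ± 0.32, adjusted p = 0.0141). Of 5 tested genes 2 were called higher and 1 lower, beside 26.2% and 26.3% of all tested genes. The 4 ependymal markers summed to 24.6 to 37.6 CPM in vehicle and 76.7 to 97.7 CPM with IFN-β at 14 h, and both tested genes, Foxj1 (1.24 ± 0.11, adjusted p = 1.1e-06) and Rarres2 (1.86 ± 0.21, adjusted p = 7.22e-06), rose, with Tmem212 at 0 in every library. At 2 h the 9 oligodendrocyte markers together were at 2349.6 to 2819 CPM in vehicle and 1528 to 1782 CPM with IFN-β. Of 5 tested genes 2 were called lower (Olig1 and Olig2), and 4 with the block on replicate number. Beside them 243 and 1618 of 12104 tested genes were called lower. At 14 h 5 of the 12 NSC markers were called lower and 1 higher, beside 26.3% and 26.2% of tested genes. At 2 h 1 was called lower without the block. With it 5 were called lower and 2 higher, beside 1618 and 1920 of 12104 tested genes. Mean Gfap at 2 h was 30.8 ± 55.5 CPM in vehicle and 162 ± 205 CPM with IFN-β (SD, n = 4). No astrocyte marker was called there without the block, and with it 2 were called higher and 1 lower, beside the counts of tested genes just given. The part of these shifts in the results below was not tested. In such bulk cultures fewer cells of a type and less RNA per cell cannot be told apart, nor can fewer footprints per mRNA and less mRNA where the mRNA itself is not measured.

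Both 2 h libraries of replicate 3 stood apart from the other libraries of their groups on these genes. Against the mean of the other 3 libraries the 10 genes lay below in each of them, by a median log2 difference of -0.97 in vehicle and -0.69 with IFN-β. Pabpc1 (-1.12), Eef1b2 (-1.25) and Eef1g (-1.21) were among the farthest in vehicle, and Eif3h (-0.42) the nearest. The same libraries had 51 of 51 TOP ribosomal proteins low (medians -0.95 and -0.85) and astrocyte and NSC markers high (medians 0.89 and 0.74 in vehicle), against 0.01 for all genes tested. The 2 h counts of called genes are therefore given with and without this pair.

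Levels were compared between genes only as CPM per kb of coding sequence. In vehicle at 14 h the order was Eef1a1 (1186 ± 106 CPM per kb, SD, n = 4), Tpt1 (1133 ± 36.4), Eef2 (1016 ± 66.0), Eef1b2 (488 ± 17.0), Eif3f (306 ± 17.3), Eef1g (288 ± 34.6), Eif3h (227 ± 9.41), Eif3e (176 ± 5.73), Pabpc1 (157 ± 18.7) and Eef1d (73.2 ± 2.45). The library ranges of Eef1a1 and Tpt1 overlapped, as did those of Eif3f and Eef1g, of Eef1g and Eif3h, and of Eif3e and Pabpc1, and the other neighbours in this order did not overlap. The GTPases of elongation and Tpt1 thus stood above the exchange subunits and the eIF3 subunits in every vehicle library. In vehicle at 2 h Tpt1 (932 ± 270.1) came first and Eef1a1 (856 ± 230.0) second, and all neighbours overlapped but Eef2 and Eef1b2. The coding length of Eef1d joins all its annotated exons (2037 bp), so its density is a low estimate. Duplicate reads were removed, which can lower the most densely covered genes, so the levels of Eef1a1, Tpt1 and Eef2 may be low estimates too. Near-identical copies lie elsewhere in the genome for 8 of the 10 genes (12 for Eef1a1, 4 for Eef1g and 3 for Tpt1), and a read that fits a gene and its copy alike cannot be assigned with certainty, so these levels are uncertain to that extent.

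The share of all footprints that fell on the 10 genes differed between vehicle and IFN-β in every pair of equal replicate number. At 2 h it was 0.593%, 0.288%, 0.573% and 0.56% in vehicle replicates 2, 3, 5 and 6, and 0.709%, 0.4%, 0.654% and 0.68% in the IFN-β libraries of the same numbers. At 14 h it was 0.708%, 0.687%, 0.708% and 0.688% in vehicle replicates 1 to 4, and 0.571%, 0.568%, 0.53% and 0.506% with IFN-β. Every pair moved up at 2 h and down at 14 h, and the groups overlapped at 2 h and did not at 14 h. These shares are a description of the libraries, with no test.

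**Figure D1:**
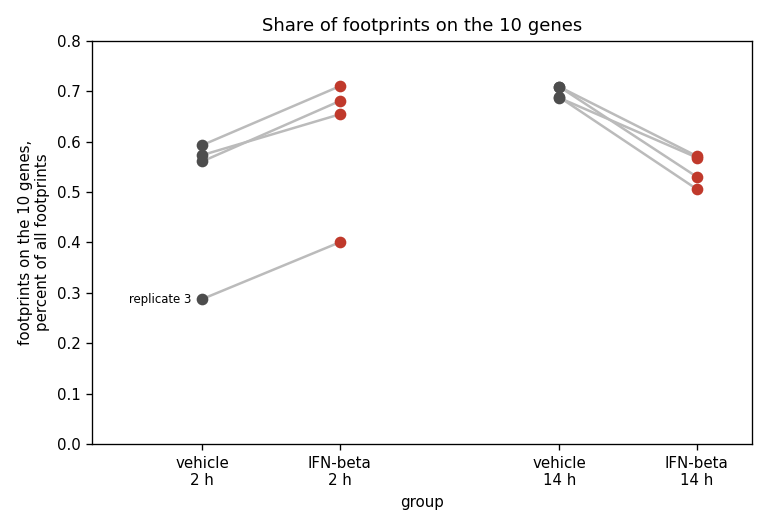
Share of all footprints on the 10 genes, in percent of the counts of each library (y axis), by group (x axis). Each point is a library and each line joins libraries of equal replicate number. All 4 lines rise at 2 h, where replicate 3 lies lowest (0.288% and 0.4%), and all 4 fall at 14 h.

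At 2 h footprints on each of the 10 genes were higher in the IFN-β library of every pair, while the groups as a whole overlapped. In edgeR's quasi-likelihood test without the replicate number, none of the 10 genes was called at an adjusted p under 0.05, against 5.25% of 12104 tested genes called higher. Pabpc1 alone had an unadjusted p under 0.05, and DESeq2 and limma-voom called none either. The deviations of same-numbered vehicle and IFN-β footprint libraries from their group means correlated in every pair, with r from 0.35 to 0.82 over the tested genes. Libraries of different numbers gave r from -0.64 to 0.34, so the lowest of the pairs lay only just above the highest of these. With the replicate number as a block, 9 of the 10 rose and Eef1d did not pass, against 15.9% of tested genes called higher. With both libraries of replicate 3 left out and no block 7 rose, against 8.69% of tested genes, and Eef1d, Eif3e and Eif3h did not pass. The median log2 fold change of the 10 was 0.32 without the block, 0.34 with it and 0.28 without replicate 3, beside a median of -0.02 for all genes.

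At 14 h footprints on all 10 genes were lower with IFN-β, relative to the scaled libraries. All 10 fell at an adjusted p under 0.05 without the block, against 26.3% of 12113 tested genes called lower, and the median log2 fold change was -0.34 against 0.00 for all genes. With the block all 10 were also called, against 31% of tested genes. Eef1b2 had a log2 fold change of -0.78, and the other 9 lay between -0.26 for Eif3h and -0.46 for Pabpc1. In 8 of the 10 genes every IFN-β library lay below every vehicle library, which held for 23% of tested genes. The exceptions were Eef1g and Pabpc1. At 2 h no gene of the 10 had groups that lay apart in this way, with IFN-β above, as 7.68% of tested genes did. Within pairs all 10 genes were lower in all 4 pairs at 14 h, as 32.3% of tested genes were, and higher in all 4 pairs at 2 h, as 21.1% of tested genes were.

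**Figure D2:**
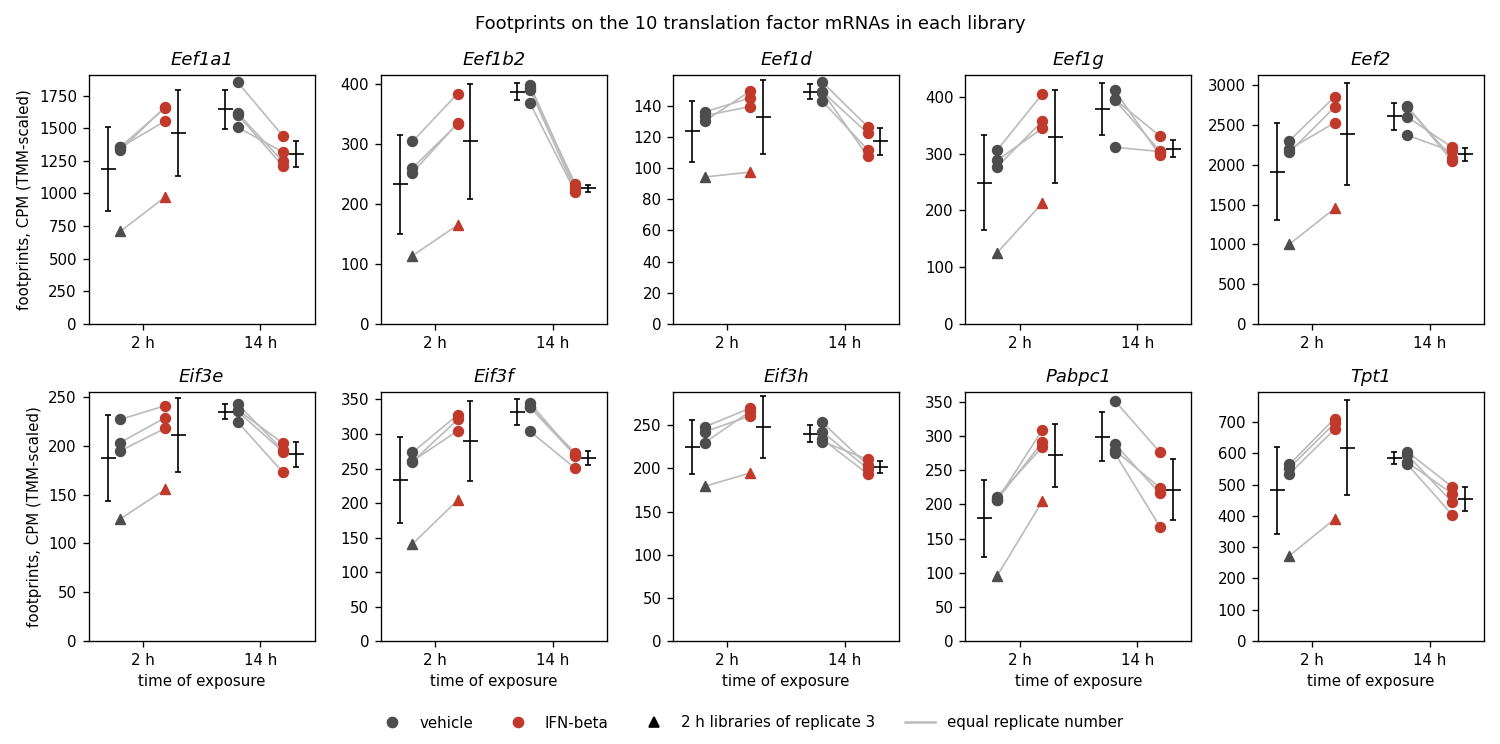
Footprints on each of the 10 genes in CPM after TMM scaling over the 16 footprint libraries (y axes, from 0), by time of exposure (x axis). Points are libraries (grey vehicle, red IFN-β), lines join equal replicate numbers, triangles are the 2 h libraries of replicate 3, and the bars beside the points give mean ± SD of 4. All lines rise at 2 h and fall at 14 h, and the triangles are the lowest points of both 2 h groups in every panel.

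Eef1a1, which delivers aminoacyl-tRNA, is encoded at chr9:78478449-78489151 (GRCm38, minus strand, ENSMUSG00000037742). Its footprints at 2 h were 1331, 709, 1353 and 1355 CPM in vehicle replicates 2, 3, 5 and 6 and 1665, 974, 1556 and 1658 CPM with IFN-β. Each IFN-β library lay above its vehicle library, but the low replicate 3 made the groups overlap. The fold change was 0.31 ± 0.24 on the log2 scale (edgeR adjusted p = 0.637), and 0.32 ± 0.04 with the block (adjusted p = 2.42e-07). At 14 h the levels were 1852, 1507, 1614 and 1603 CPM in vehicle replicates 1 to 4 and 1441, 1317, 1245 and 1210.2 CPM with IFN-β, 2 groups that did not overlap. Eef1a1 footprints fell there (log2 fold change -0.35 ± 0.07, edgeR adjusted p = 0.00145).

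Of the exchange factors of eEF1A, Eef1b2 (chr1:63176825-63180486, plus strand) had the largest log2 fall of the 10 genes at 14 h. At 2 h it stood at 304, 114, 260.2 and 253 CPM in vehicle and 384, 165, 334 and 335 CPM with IFN-β, higher in each pair. At 14 h it stood at 391, 393, 399 and 368 CPM in vehicle and 223, 233, 229 and 219.9 CPM with IFN-β. The 14 h groups lay far apart, with the highest IFN-β library well under the lowest vehicle library, and the pair differences were alike at log2 -0.81, -0.75, -0.80 and -0.74. The log2 fold change was -0.78 ± 0.05 at 14 h (edgeR adjusted p = 3.15e-08) and 0.39 ± 0.32 at 2 h (adjusted p = 0.665, with the block 0.40 ± 0.05, adjusted p = 6.19e-08).

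Eef1d (chr15:75894205-75909556, minus strand), the other exchange subunit, had the smallest 2 h difference of the 10. Its range was 94.4 to 136 CPM in vehicle and 97.4 to 149 CPM with IFN-β, and its log2 fold change of 0.11 ± 0.16 did not pass in any of the alternatives tried (edgeR adjusted p = 0.125 with the block). At 14 h it fell from 149 ± 4.99 to 117 ± 8.85 CPM (mean ± SD, n = 4, log2 -0.35 ± 0.06, edgeR adjusted p = 0.00053). Eef1g (chr19:8967041-8978479, plus strand), the subunit that joins them, was at 311, 396, 411 and 395 CPM in vehicle replicates 1 to 4 and at 303, 331, 297 and 304 CPM with IFN-β. Vehicle replicate 1 lay among the IFN-β libraries, so that its pair differed by a log2 of only -0.04 while the other pairs differed by -0.26 to -0.47. Eef1g fell as a group (log2 -0.30 ± 0.08, edgeR adjusted p = 0.00531), and at 2 h it had a log2 fold change of 0.41 ± 0.28 (adjusted p = 0.57, with the block 0.44 ± 0.06, adjusted p = 4.58e-07).

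Eef2 (chr10:81176631-81182498, plus strand), the translocase, carried more footprints than any of the other 9 genes in each group when its length is not taken into account. At 2 h it stood at 2306, 1004, 2198 and 2158 CPM in vehicle and 2858, 1453, 2531 and 2728 CPM with IFN-β. At 14 h it stood at 2376, 2608, 2738 and 2736 CPM in vehicle and 2170.2, 2221, 2086 and 2051 CPM with IFN-β, without overlap. Its log2 fold change was 0.32 ± 0.29 at 2 h (edgeR adjusted p = 0.693, with the block 0.35 ± 0.04, adjusted p = 1.06e-07), and it fell by 0.3 ± 0.05 at 14 h (adjusted p = 0.000502). Footprints on Eef2k, the kinase that inactivates eEF2, rose at 14 h (log2 0.38 ± 0.09, adjusted p = 0.00252), after a log2 fold change of 0.78 ± 0.38 at 2 h (adjusted p = 0.36, with the block 2.04e-10).

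Of the 3 eIF3 subunits Eif3f had the largest log2 fold changes at both times, only just so at 14 h, and the differences between the 3 were not tested. Eif3f (chr7:108934417-108942951, plus strand) stood at 273, 141, 261 and 259.8 CPM in vehicle and 328, 204, 305 and 321 CPM with IFN-β at 2 h, and at 339, 339, 345 and 304 CPM and 269, 273, 269 and 250.1 CPM at 14 h. Its 4 pairs at 14 h were close to each other (log2 -0.33, -0.32, -0.36 and -0.28). The log2 fold changes were 0.31 ± 0.22 at 2 h (edgeR adjusted p = 0.584, with the block 6.11e-06) and -0.33 ± 0.06 at 14 h (adjusted p = 0.000287).

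Eif3e (chr15:43250058-43282719, minus strand) and Eif3h (chr15:51786558-51865523, minus strand) had log2 fold changes of 0.17 ± 0.19 and 0.14 ± 0.14 at 2 h, neither called without the block (edgeR adjusted p = 0.77 and 0.717) and both with it (adjusted p = 0.00516 and 0.0177). At 14 h Eif3e went from 224 to 243 CPM in vehicle to 173 to 203 CPM with IFN-β. Eif3h went from 231 to 253 CPM to 194 to 210.5 CPM. Neither gene's groups overlapped at 14 h, and both fell (log2 -0.31 ± 0.06 and -0.26 ± 0.05, adjusted p = 0.000713 and 0.000831).

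The other 11 subunit genes of eIF3, which make the same complex, did not all follow. At 14 h 8 of the 11 fell without the block, with a median of -0.22, against 26.3% of tested genes. The largest falls were those of Eif3j1 (-0.56 ± 0.06, edgeR adjusted p = 1.08e-05) and its near-identical copy Eif3j2 (-0.74 ± 0.10), between which reads may be shared, so that both values are uncertain. Eif3a, the subunit around which the complex is assembled (-0.28 ± 0.05, adjusted p = 0.000554), and Eif3g (-0.33 ± 0.07, adjusted p = 0.00108) fell, as did Eif3b (-0.19), Eif3k (-0.24), Eif3l (-0.18) and Eif3m (-0.22). Eif3i missed the threshold without the block (-0.15 ± 0.06, adjusted p = 0.06) and fell with it (-0.15 ± 0.04, adjusted p = 0.00231). Eif3c (0.03 ± 0.05, adjusted p = 0.66) and Eif3d (0.07 ± 0.06, adjusted p = 0.334) were slightly above vehicle and not called, which with the block stayed so (adjusted p = 0.519 and 0.133). At 2 h none of the 11 was called without the block, with Eif3j2 at an unadjusted p under 0.05. With it 6 rose, against 15.9% of tested genes, and 1 was called without replicate 3, against 8.69%, from which nothing is read.

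**Figure D3:**
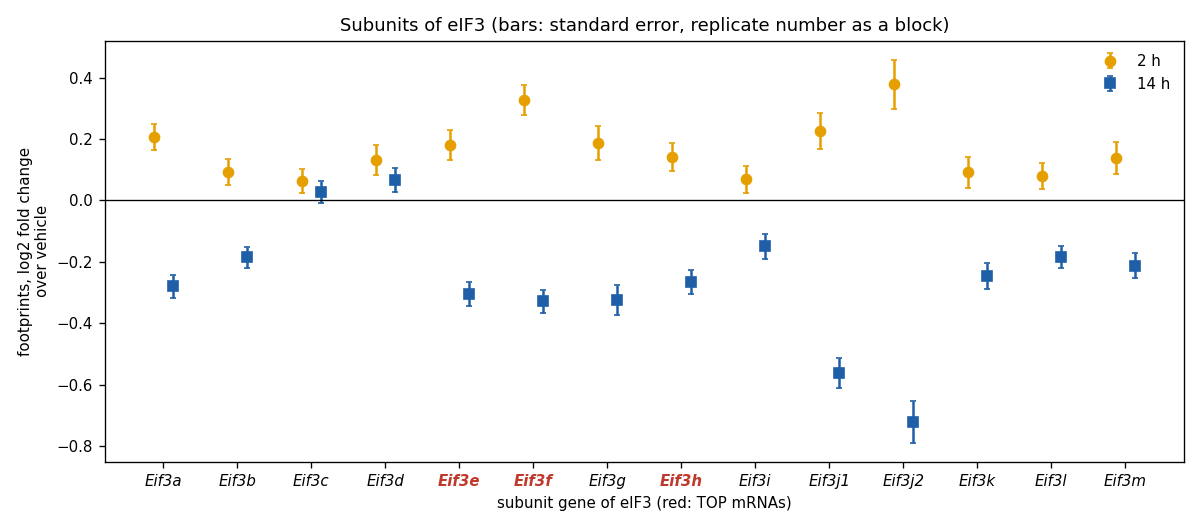
Log2 fold change of footprints over vehicle (y axis) for each subunit gene of eIF3 (x axis) at 2 h (orange circles) and 14 h (blue squares), from the edgeR fit with the replicate number as a block, with standard errors as bars and n = 4 pairs at each time. Eif3e, Eif3f and Eif3h, in red, lie below 0 at 14 h with 9 of the other 11 subunits, and Eif3c and Eif3d lie just above 0.

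Pabpc1 (chr15:36595661-36609668, minus strand), which binds the poly(A) tail and through eIF4G the cap complex, had the largest 2 h difference of the 10. At 2 h it stood at 206, 95.3, 211 and 207 CPM in vehicle and 309, 205, 284 and 291 CPM with IFN-β. Without replicate 3 the groups did not overlap, and the pair of replicate 3 differed most, by a log2 of 1.10 against 0.43 to 0.58 in the other pairs. At 14 h it stood at 352, 279.7, 289 and 276 CPM in vehicle and 277, 224, 216 and 168 CPM with IFN-β, where replicate 1 was highest in both groups. Its log2 fold change was 0.60 ± 0.24 at 2 h (edgeR adjusted p = 0.23, with the block 0.63 ± 0.07, adjusted p = 1.76e-08, without replicate 3 0.51, adjusted p = 0.00012) and -0.46 ± 0.12 at 14 h (adjusted p = 0.00725). Its relative Pabpc4 had log2 fold changes of 0.23 ± 0.20 at 2 h (adjusted p = 0.683, with the block 0.0357) and -0.72 ± 0.07 at 14 h (adjusted p = 4.19e-06), and the difference between the genes was not tested.

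Tpt1 (chr14:75845093-75848525, plus strand) encodes a protein that is known as an abundant one in growing cells. At 2 h it stood at 564, 273, 553 and 535 CPM in vehicle and 711, 389.5, 696 and 676 CPM with IFN-β. At 14 h it stood at 572, 605, 596 and 566 CPM and 471, 493, 444 and 404 CPM. The 14 h groups did not overlap, and its log2 fold change was -0.38 ± 0.06 (edgeR adjusted p = 0.000191), after 0.37 ± 0.26 at 2 h (adjusted p = 0.584, with the block 0.38 ± 0.04, adjusted p = 3.42e-08).

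**Figure D4:**
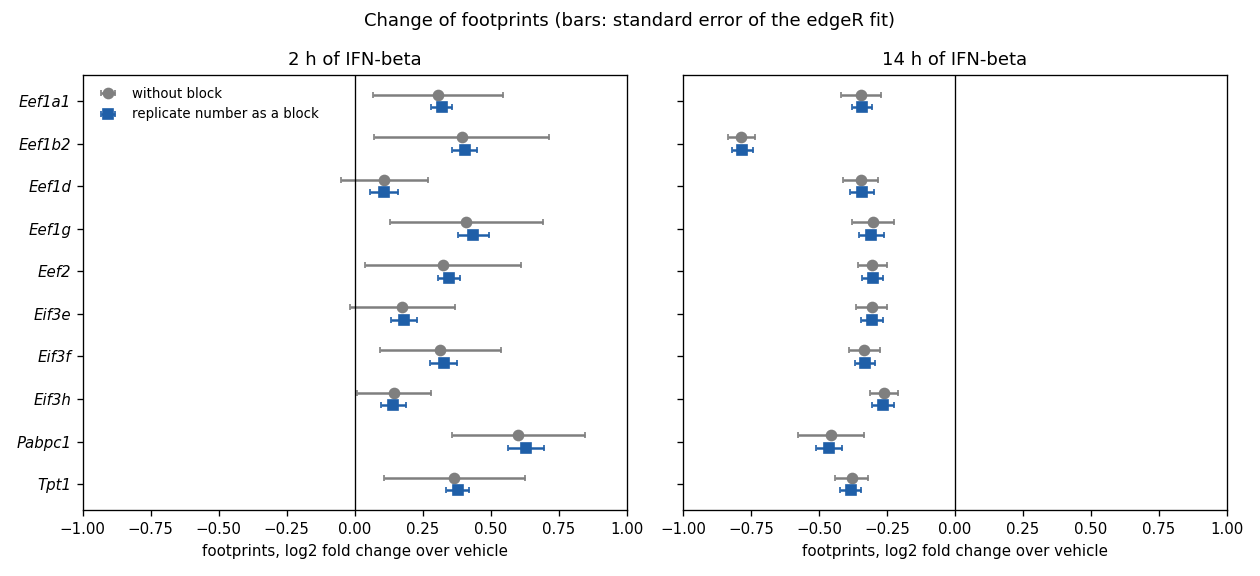
Log2 fold change of footprints over vehicle (x axes) for each gene (y axis) after 2 h and 14 h of IFN-β, n = 4 libraries a group. Grey circles are the fit without the replicate number and blue squares that with it as a block, with standard errors as bars. The estimates of both fits lie close together, above 0 at 2 h and below 0 at 14 h, and the 2 h bars are much wider without the block.

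Whether the response differed between the exposures was tested directly over the 16 footprint libraries. Each exposure had its own libraries, with its own set of replicate numbers. Length of exposure and set of cultures can therefore not be told apart here. In vehicle the astrocyte markers summed to 1576 to 2891 CPM at 2 h and 706 to 886 CPM at 14 h. The neuroblast markers summed to 789 to 1013 CPM and 1101 to 1205 CPM in the same groups. The log2 fold change at 14 h minus that at 2 h was negative for all 10 genes, from -0.39 for Eif3h to -1.17 for Eef1b2, with a median of -0.64 against 0.02 for all genes. Without the block it passed for Eef1b2 (-1.17 ± 0.35, edgeR adjusted p = 0.0182) and Pabpc1 (-1.04 ± 0.30, adjusted p = 0.0153), against 15.5% of 12508 tested genes called in this direction. With the block it passed for all 10, with adjusted p from 6.98e-16 for Eef1b2 to 2.88e-06 for Eef1d, against 27.5% of tested genes. Without the 2 h libraries of replicate 3 and without the block it also passed for all 10, against 21.2%. The count without the block depended on the libraries used. It was 10 without IFN-β replicate 3 of 2 h, 5 without vehicle replicate 2 of 2 h, and 1 (Pabpc1) without both replicate 1 libraries of 14 h. Over all genes and in either direction, these settings gave 4929, 3902 and 3188 calls in place of 3867.

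The genes whose footprints followed these 10 most closely were ribosomal proteins and another eIF3 subunit. Likeness was the Pearson correlation, over the 16 footprint libraries, with the mean log2 CPM of the 10 genes, each gene relative to its vehicle mean of the same time. Among 10281 genes whose counts averaged 50 or more the closest were Rplp0 (r = 0.995), Rpl4 (0.991), Rpl27a (0.99), Rpl23 (0.989) and Eif3a (0.988), against a median of 0.01 and a 99th percentile of 0.956. Of the first 100 genes 24 were among the 54 other TOP mRNAs measured. The points share libraries, scaling and the low replicate 3, and these values are a description. Within the 10, Tpt1 and Eif3f lay closest to the common profile (both 0.99) and Eef1d farthest (0.92). That profile includes the gene itself, which raises these values.

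Other parts of the translation apparatus gave a mixed picture. Of 51 TOP ribosomal proteins 48 fell at 14 h (median -0.48), against 26.3% of tested genes. At 2 h edgeR called none of them without the block, where none had an unadjusted p under 0.05. With it 43 rose (median 0.26), against 15.9% of tested genes, and 27 rose without replicate 3, against 8.69%. The TOP mRNAs Npm1, Hnrnpa1 and Eef1e1 fell by 0.69, 0.62 and 0.58 on the log2 scale at 14 h (edgeR adjusted p = 1.47e-06, 0.000267 and 5.89e-06). Of 28 other initiation factors tested at 14 h 14 fell and 2 rose (median -0.21), where 26.3% of tested genes fell and 26.2% rose. Among them Eif4b, the helper of the eIF4A helicase (-0.36 ± 0.06, adjusted p = 0.000231), the cap-binding Eif4e (-0.40 ± 0.05, adjusted p = 4.41e-05) and the helicase Eif4a1 (-0.64 ± 0.22, adjusted p = 0.0286) fell, while the scaffold Eif4g1 (0.00 ± 0.05, adjusted p = 0.969) did not pass. Of 17 other elongation and termination factors, Eef1e1 again among them, 9 fell and 2 rose (median -0.36), beside the same shares of tested genes. Eif5a, which eases the ribosome past difficult stretches, missed the threshold without the block (-0.16 ± 0.07, edgeR adjusted p = 0.0632) and fell with it (adjusted p = 0.00113). Eef1a2, the neuronal and muscle form of eEF1A, had too few counts to be tested.

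The factors of mitochondrial translation, which work on other ribosomes, had a median of -0.06 at 14 h, with 3 of 9 fallen and 1 risen, beside 26.3% and 26.2% of all tested genes, and Tufm, the mitochondrial counterpart of eEF1A, fell (log2 -0.26 ± 0.09, edgeR adjusted p = 0.0265). Of the poly(A)-binding proteins and their partners 5 of 11 tested fell and 1 rose (5 and 3 with the block) beside the same shares of all genes. Among 14 tested regulators of TOP mRNAs 6 fell and 2 rose at 14 h (median -0.02), and nothing is read from these 3 counts. Larp1 was close to vehicle at 14 h (0.00 ± 0.05, adjusted p = 0.972) and had a log2 fold change of 0.32 ± 0.13 at 2 h (adjusted p = 0.224, with the block 1.8e-05). Footprints on Mtor rose at 14 h (0.30 ± 0.07, adjusted p = 0.00255), those on the cap-complex inhibitors Eif4ebp1 (-0.27 ± 0.09, adjusted p = 0.021) and Eif4ebp2 (-0.29 ± 0.06, adjusted p = 0.00141) fell, and Rptor did not pass (0.09 ± 0.05, adjusted p = 0.184).

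**Figure D5:**
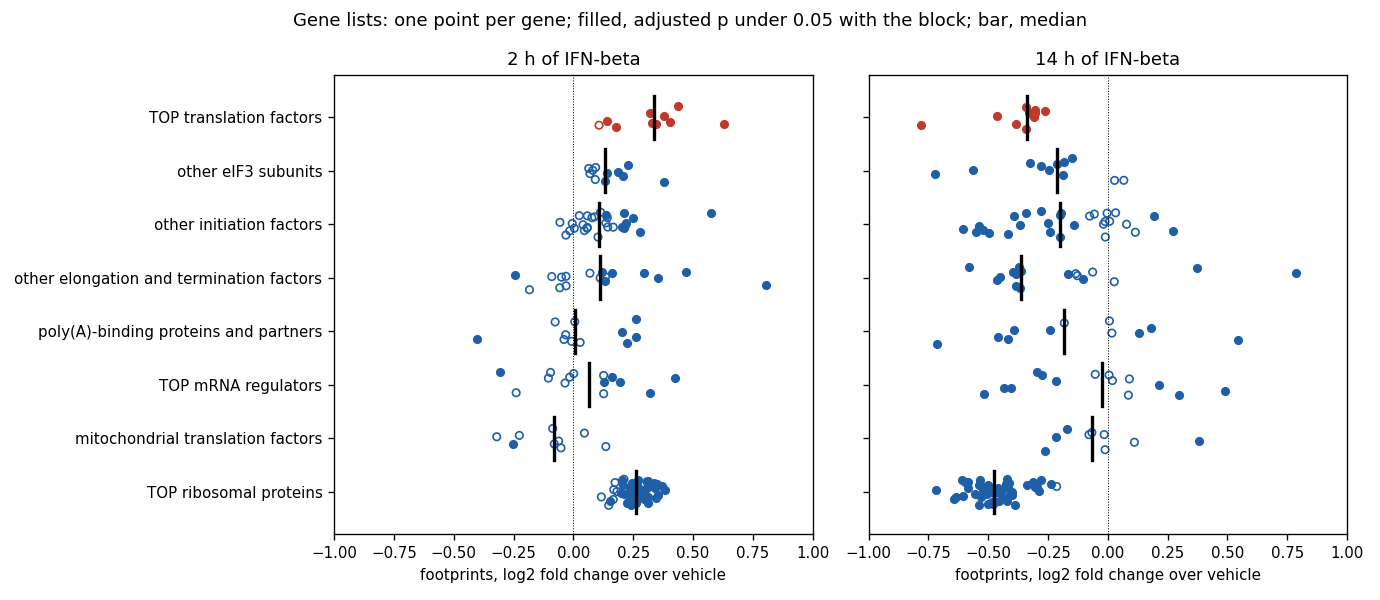
Log2 fold change of footprints over vehicle (x axes) at 2 h and 14 h for each tested gene of 8 lists (y axis), from the edgeR fit with the replicate number as a block, n = 4 pairs at each time. Filled points have an adjusted p under 0.05, open points do not, and the black bar is the median of the list. The TOP translation factors (red, medians 0.34 and -0.34) and the TOP ribosomal proteins lie on one side of 0 at each time, while the other lists spread over both sides at one or both times.

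Total RNA of the same lysates held too few counts on these genes to serve as a measure of their mRNA. The 10 genes had 0 to 446 total RNA counts per library at 2 h (median 19.5) and 0 to 65 at 14 h (median 3), against 477 to 22631 and 321 to 28813 footprints. Eef2 had 6 to 49 total RNA counts in vehicle at 14 h, Eif3e 0 to 1, and the NSC factor Sox2 was at 0 in all 16 total RNA libraries with 646 to 3537 footprints. Genes with an annotated gene on the other strand took 89.9% of the total RNA counts at 2 h and 92% at 14 h, against 39.7% and 40.1% of the footprints. The libraries were made with a directional kit, and the strand setting of the counting is not given in the sources used here.

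Translation efficiency (TE), the change of footprints relative to that of total RNA, rests on these counts and was tested as an interaction between treatment and library type. None of the 10 genes was called at an adjusted p under 0.1, at 2 h (0.815% of 14115 genes called), at 14 h (8.45% of 13447) or for the difference between the times (2.37% of 14447). edgeR gave 0 of them an unadjusted p under 0.05 in each of these comparisons, DESeq2 1, 1 and 0, limma-voom 0, 4 and 0, and edgeR with the block 0, 1 and 1, in the order 2 h, 14 h and difference. In total RNA alone 8 could be tested at 2 h and 3 at 14 h, and none was called, against 0.799% of 11639 and 6.3% of 7520 genes, with 1 and 0 at an unadjusted p under 0.05 in edgeR and none in DESeq2. Whether the total RNA counts come from the strand of the mRNA was not tested, so neither they nor TE are read here as the mRNA level or the translation efficiency of these genes, and the lack of calls says nothing about either.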

How the data were processed

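Ribo-Seq footprints and total RNA were measured in 32 libraries of NSCs. The authors trimmed reads (Trim Galore 0.4.4), mapped them with Bowtie 0.12.7 to mouse transcripts (Ensembl 93, GRCm38), removed duplicates, which can lower the most densely covered genes, and counted reads per gene with SummarizeOverlaps. The deposited values are raw counts, of coding sequences for footprints and of genes for total RNA. Bowtie ran with its standard options, which report an arbitrary one of several equally valid alignments of a read, and the Union mode of SummarizeOverlaps leaves out reads that overlap several genes. Copies of 8 of the 10 genes (at least 100 bases at 95% identity, 12 of them for Eef1a1) are in the annotation and have no row in the footprint tables.

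Rows were named through GENCODE M21 (22205 of 23035 footprint rows matched). Genes that reached 10 counts in 4 or more libraries were scaled by TMM and tested two-sided with edgeR 4.0.16 (R 4.3.3) by the quasi-likelihood test, with Benjamini-Hochberg adjustment over all genes tested. The threshold on the adjusted p was 0.05 for footprints and total RNA, and 0.1 for TE. Standard errors were the log2 fold change over the root of F. CPM per library used a single TMM scaling of the 16 footprint libraries, and log2 ratios of pairs added 0.5 CPM. Scripts were tested on simulated data. Without the block, the footprint test recovered 8% of simulated 1.3-fold changes at 2 h and 73% at 14 h. Of simulated 2-fold changes in TE it recovered 3% at 2 h, 18% at 14 h and 0% for the difference between times. A lack of calls at such sizes is therefore weak evidence of no change.

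Replicate numbers come from the labels, which do not say that they mark shared cultures. They were taken to pair the footprint libraries because every pair correlated in its deviations from the group means (r at least 0.35 at 2 h and 0.2 at 14 h). Footprint libraries of different numbers gave r from -0.64 to 0.34 at 2 h and from -0.39 to 0.12 at 14 h. In total RNA, pairs of equal number had r from -0.48 to 0.39 at 2 h and from -0.01 to 0.25 at 14 h. The study defines its biological replicates as different mice or NSC cultures from different mice, and the labels do not tie libraries to mice. Named were all 10 factors and, by what they are, the other eIF3 subunits, paralogs and partners, initiation factors and regulators, with the 5 genes most like the 10 in profile. They and the lists were chosen with earlier results of these data known. Alternatives were DESeq2 1.42.0, limma-voom (limma 3.58.1), RLE scaling, totals without TMM, scaling without 64 TOP mRNAs, no filter, a mean of at least 50 counts, the replicate block and each library left out. Leaving out both 2 h libraries of replicate 3, or both 14 h libraries of replicate 1, was chosen after seeing the data.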

Additional observations from a re-analysis of the deposited data

Results flagged for a closer look

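In groups of 4 libraries a lowest or highest value was marked by its gap to the next. The gap had to exceed Dixon's 95% critical share of the range of the group, which chance gives in about 1 in 20 independent groups. The groups here share libraries and the 10 genes vary together, so that rate does not apply to their count. Of 40 groups of footprint levels of the 10 genes 12 held such a value, and 10 of these were 2 h libraries of replicate 3. In vehicle they were Eef1a1 (709 CPM), Eef1d (94.4 CPM), Eef1g (125 CPM), Eef2 (1004 CPM), Eif3f (141 CPM), Pabpc1 (95.3 CPM) and Tpt1 (273 CPM), each the lowest of its group. With IFN-β they were Eef1a1 (974 CPM), Eif3h (195 CPM) and Tpt1 (389.5 CPM), also the lowest. At 14 h vehicle replicate 1 was lowest for Eef1g (311 CPM) and vehicle replicate 4 lowest for Eif3f (304 CPM).

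The response to IFN-β differed between the 2 h and the 14 h set of libraries for Eef1b2 (log2 difference -1.17, edgeR adjusted p = 0.0182) and Pabpc1 (-1.04, adjusted p = 0.0153) without the replicate block. Both genes were higher in 4 of 4 pairs at 2 h and lower in 4 of 4 pairs at 14 h.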

How the results depend on the processing

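At 14 h all 10 genes stayed lower and called under each of the 17 alternatives, with log2 fold changes from -0.80 to -0.23. At 2 h all 10 stayed higher under each of the 18 alternatives (0.00 to 0.72), and none was called under 15 of them. The exceptions were the replicate block with 9 called, both libraries of replicate 3 left out with 7, and both choices together with 9. Over all genes these gave 3538, 1671 and 3168 calls at 2 h in place of 878, and leaving out single libraries 517 to 953. For the difference between times, 2 genes called without the block became 5 under DESeq2, 4 when scaling left out the TOP mRNAs, 10 with the replicate block, 10 without both 2 h libraries of replicate 3, with the block or without it, and 1 without both 14 h libraries of replicate 1. Leaving out single libraries gave 2 to 10. The log2 differences kept their sign (-1.37 to -0.30), and over all genes the block gave 6944 calls in place of 3867 (6666 with replicate 3 also left out). Calls over all genes were 4122 under DESeq2 and 3899 when scaling left out the TOP mRNAs. They were 5196 without both 2 h libraries of replicate 3, 3188 without both 14 h libraries of replicate 1, and 3229 to 4929 without single libraries. In TE at 14 h leaving out single libraries gave 0 to 1 call (1 lower without vehicle replicate 4), and no other alternative called any of the 10 in total RNA or TE. The replicate block changed no other call of theirs. At a mean of 50 counts none of them was left to test in TE or total RNA at 14 h.

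Calls over all genes in total RNA and TE moved more. In total RNA at 2 h, 93 became 169 under DESeq2, 174 without a filter, 44 at a mean of 50 counts, 39 without replicate 3 and 4 with the block as well, and 30 to 74 without single libraries. At 14 h, 474 became 273 without TMM, 247 at a mean of 50 counts, 171 without replicate 1, and 171 to 450 without single libraries. In TE at 2 h, 115 became 259 under DESeq2, 242 under limma-voom, 51 without TMM, 27 at a mean of 50 counts, 201 without replicate 3, 69 with the block as well, and 70 to 149 without single libraries. At 14 h, 1136 became 380 at a mean of 50 counts and 751 without replicate 1. For the TE difference between times, 343 became 593 under DESeq2, 533 under limma-voom, 98 without TMM, 196 at a mean of 50 counts, 524 with the replicate block, 611 without replicate 3, 141 without replicate 1 of 14 h, and 194 to 610 without single libraries. The cause was not tested. Totals without TMM moved the median log2 fold change of all genes from -0.04 to -0.38 in TE at 2 h, from 0.04 to 0.23 in total RNA at 2 h and from 0.05 to 0.43 in the TE difference. CPM from totals alone, and a pseudocount of 5 CPM, moved each level and pair ratio of the 10 genes by less than 1 SD.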

Other observations

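A few genes of the same lists went against the common direction at 14 h, and they were chosen after their values were seen. Gtpbp2, a GTPase of ribosome rescue, rose most among the elongation and termination factors (log2 0.79 ± 0.06, edgeR adjusted p = 2.87e-07), while at 2 h its log2 fold change was -0.03 ± 0.10 (adjusted p = 0.947). Tob1, which joins the poly(A)-binding protein to deadenylases, rose (log2 0.55 ± 0.05, adjusted p = 2.45e-06), opposite to Pabpc1 and Pabpc4. Eif2b2, a subunit of the exchange factor of eIF2, was the only initiation factor on the list called at 2 h without the block (log2 0.59 ± 0.14, adjusted p = 0.039), and it was also higher at 14 h (log2 0.28 ± 0.09, adjusted p = 0.0172). Of the mitochondrial factors Mtif3 rose at 14 h (log2 0.39 ± 0.12, adjusted p = 0.0144).

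Eef1a1, Tpt1 and Eef2 were among the most densely covered genes, with up to 12.2, 11.8 and 11.2 footprints per base of coding sequence in a library, and 95, 99 and 108 of 20909 genes with a coding length of at least 300 bases were denser.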
